A study of Mus musculus with 30 samples.

Results

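Mature pancreatic beta-cells were compared with mature alpha-cells, the insulin- and the glucagon-producing cells of the islet, in 15 of the 30 bulk RNA-seq libraries of the series. The 7 beta libraries carry the label b-cell reference and came from Insulin-mCherry mice aged 3 months. The 8 alpha libraries carry the label ctl noDT and came from Glucagon-Venus mice aged 3 months. Both populations were purified by fluorescence-activated cell sorting (FACS) on their reporters, and by their labels neither group received diphtheria toxin or carried the toxin receptor or the Pdx1 transgene. In addition, levels are quoted for 4 alpha DT libraries, from Glucagon-Venus; RIP-DTR mice injected with diphtheria toxin (DT) at 2 months of age and taken 30 days later. RIP-DTR places the toxin receptor in insulin-expressing cells. The sorted cell type and the reporter strain differ together between alpha and beta, so their parts in any difference cannot be told apart. The labels do not say that libraries came from separate animals, so p-values measure only the spread between these samples.

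Alpha- and beta-cells share a developmental origin and much of their secretory machinery, but respond to glucose in opposite ways. In mouse beta-cells glucose enters through the GLUT2 transporter, is phosphorylated and oxidised, closes ATP-sensitive potassium channels and opens voltage-gated calcium channels, and the calcium that enters triggers insulin release. Alpha-cells fire and release glucagon at low glucose, respond strongly to amino acids, and are held back by signals from their neighbours. Receptors for gut hormones, nerve transmitters and nucleotides tune both cells, and adhesion molecules and gap junctions fix how they touch and couple.

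Values were quantile-normalized log2 values, which give every library the same distribution, with a median of 8.55 and quartiles of 5.95 and 10.37. A gene's value therefore reflects its rank in the library, and values are compared within a gene only. In bulk samples, fewer cells of a type and less RNA per cell cannot be told apart. Fold changes are log2 differences of beta minus alpha ± the standard error from limma, a linear model with variances moderated across genes. Adjusted p-values are Benjamini-Hochberg values over all 16633 genes tested, with a threshold of 0.05. Read depth is not in the table and is unknown.

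The marker genes matched the labels except in 3 libraries. Ins1, an insulin gene, was 11.61 at the lowest, 13.15 at the median and 18.27 at the highest in alpha, against 20.54, 22.56 and 22.56 in beta. Mafa, a transcription factor of mature beta-cells, was 0.76, 0.98 and 1.95 in alpha and 6.26, 7.94 and 8.78 in beta, and Irx2, an alpha-cell factor, was 11.66, 12.14 and 12.53 in alpha and 5.1, 5.94 and 9.76 in beta. For these 3 genes the groups did not overlap. Gcg, the glucagon gene, was 20.54, 22.56 and 22.56 in alpha and 15.16, 16.37 and 22.56 in beta, so its groups overlapped. Gcg was the top gene in the libraries labelled beta 1 and beta 5, at 22.56. In the library labelled alpha 8, Pyy was the top gene at 22.56, Gcg was at 20.54, and the beta-cell factor gene Pdx1 was at 11.23 against 3.66 to 5.61 in the other 7 alpha libraries. These 3 libraries (and alpha Pdx1 5 and alpha Pdx1 DT 5, in groups that enter the fit only through the shared spread) go against their labels, and results are also given without all 5, written below as "without the doubted libraries". Alpha 4 and alpha Pdx1 DT 5 were the closest of 435 pairs of libraries, with a correlation of 0.993 across genes, against 0.986 for the next pair, and leaving out both is among the alternatives.

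Several lists of genes for other cell types and cell states differed between the groups. Each is given as the mean log2 value of its genes in a library, compared by a two-sided exact permutation test over the 15 libraries with adjustment over 11 lists. The 19 immediate early genes, such as Fos and Egr1, which rise within minutes of a stimulus, had means of 10.65 to 11.73 in alpha and 7.99 to 10.08 in beta (difference -2.56, adjusted p = 0.00228). By limma 16 of them were lower in beta and 1 was higher. The 77 cytosolic ribosomal protein genes had means of 12.5 to 13.21 in alpha and 11.85 to 12.56 in beta (difference -0.74, adjusted p = 0.00228), with 51 lower in beta by limma. The immediate early means did not overlap between the groups, and the ribosomal means overlapped only through alpha 8 at 12.5 and beta 5 at 12.56. The 4 pancreatic polypeptide cell genes differed by -3.11 (adjusted p = 0.00228), the 6 mesenchymal genes by -1.94 (adjusted p = 0.00957) and the 2 erythroid genes by -2.0 (adjusted p = 0.00427). The erythroid difference rested on Hbb-b1, which was lower by limma (-4.34, adjusted p = 0.000104). Alas2, the other erythroid gene, had a fold change of 0.35 (limma, adjusted p = 0.406). The 23 acinar digestive enzyme genes ran from 5.98 to 12.35 in alpha and from 6.25 to 13.65 in beta (difference 0.16, adjusted p = 0.901), and beta 1 and beta 5 were highest at 13.65 and 13.54. The 10 leukocyte genes ran from 4.65 to 7.63 in alpha and from 6.34 to 10.85 in beta (difference 1.61, adjusted p = 0.0724). The lists for delta (adjusted p = 0.894), duct, endothelial and Schwann cells (adjusted p = 0.743 each) did not pass. Their means can hide genes on opposite sides. By limma, Rbp4 (-2.54) was lower and Pcp4 (1.89) higher in the delta list, and Spp1 (-1.66) lower and Krt7 (0.97) higher in the duct list. The delta gene Sst had a fold change of -1.13 (limma, adjusted p = 0.289), or -2.59 without the doubted libraries (adjusted p = 0.00563). The part of these cells and states in the differences below was not tested.

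**Figure D1:**
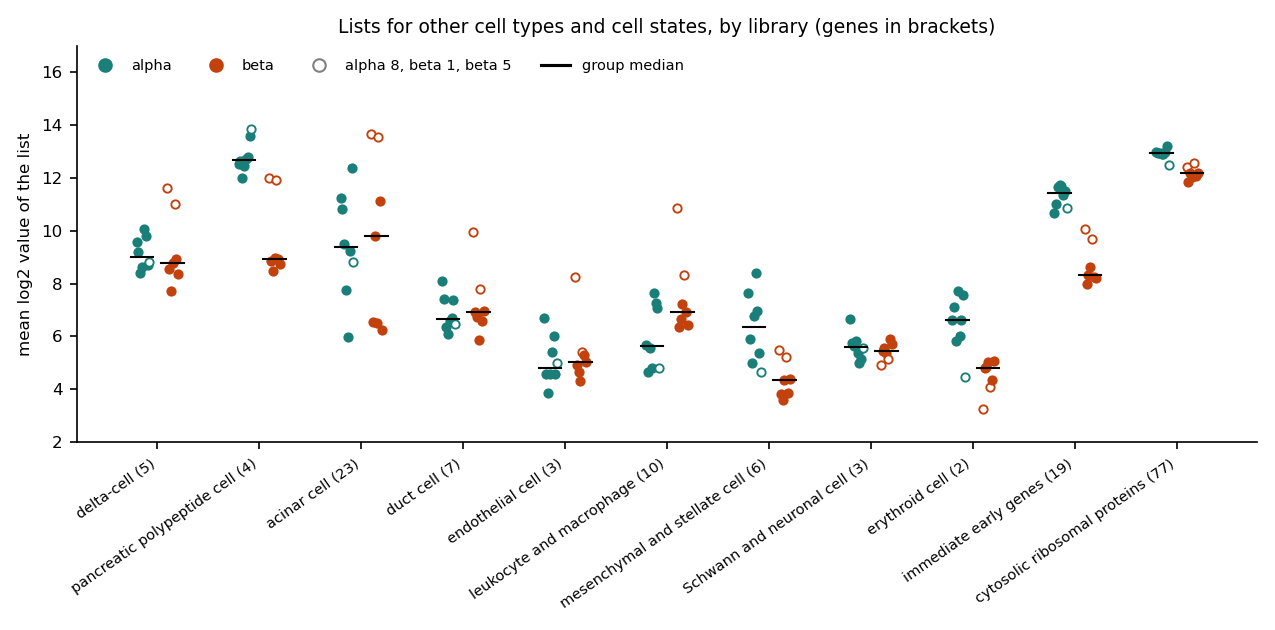
Mean log2 value of each list for other cell types and states (vertical axis) in every alpha and beta library (points), with group medians as lines and the 3 libraries that go against their labels as open points. Immediate early and ribosomal protein genes were lower in beta, and the acinar list was highest in beta 1 and beta 5.

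In all, 34.5% of the genes tested differed between the groups, 2804 higher in beta (16.9%) and 2930 lower (17.6%). Transporter, receptor, ion channel, metabolic and adhesion genes were grouped into 46 lists, of which 33 had more genes higher than lower, 11 had more lower than higher and 2 had equal numbers. Of the 1570 listed genes tested, 452 were higher and 262 lower, which is 45.5% against the 34.5% of all genes, and their median fold change was 0.20 against -0.00 over all genes. The groups did not overlap, meaning that every beta library lay above or below every alpha library, for 364 listed genes (23.2%), against 14.5% of all genes. Without the doubted libraries that was 597 listed genes (38.0%), against 24.3% of all genes, and 440 listed genes were then higher and 267 lower. The same fit called 16.0% of all genes higher and 15.8% lower. One scaling changes the split of directions. Centring each library on its ribosomal protein genes moved the median fold change of all genes by 0.74, and 7717 genes were then higher (46.4%) and 870 lower (5.23%), so that 89.9% of calls were higher against 48.9% as deposited. Directions of lists are therefore given relative to the deposited scale. After the centring 45 of the 46 lists had more genes higher than lower, all but the Eph receptors and ephrins, so that each of the other 10 lists with more lower genes turned.

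**Figure D2:**
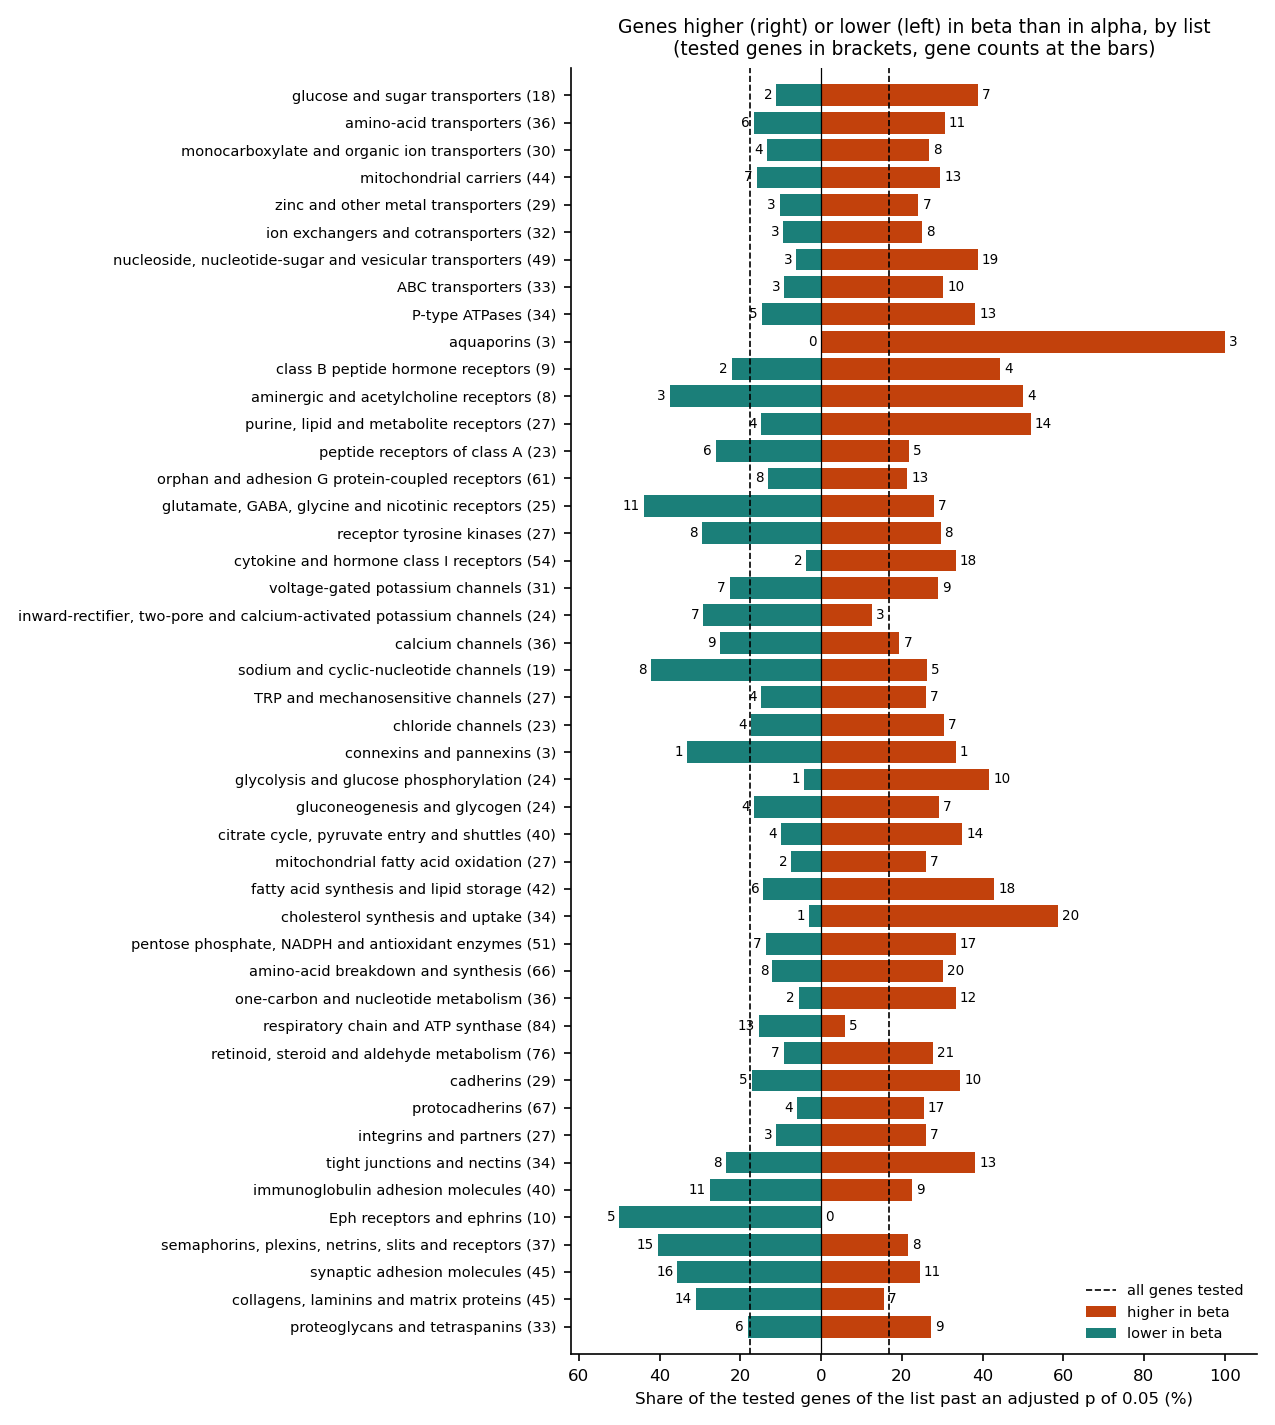
Share of the tested genes of each list (horizontal axis, %) that were higher (right, orange) or lower (left, green) in beta than in alpha at an adjusted p under 0.05, with gene counts at the bars and the shares over all genes as dashed lines (16.9% and 17.6%). Cholesterol genes stand furthest to the right among lists of over 10 genes, and guidance and synaptic adhesion lists reach further to the left than the right.

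Transporters leaned towards beta. The deposited table held 318, of which 308 were tested, and 99 were higher and 36 lower in beta, or 43.8% called, with a median of 0.23. After ribosomal centring 181 were higher and 12 lower, beside 46.4% and 5.23% of all genes, and without the doubted libraries 98 and 34. Of the 18 sugar transporters, 7 were higher and 2 lower. Slc2a2 (GRCm38.p6 chr3:28697903-28728361), which encodes the glucose transporter GLUT2, was 4.12 at the lowest, 6.73 at the median and 7.66 at the highest in alpha and 14.0, 14.96 and 15.37 in beta. The groups stood far apart, with a fold change of 8.40 ± 0.47 (adjusted p = 1.48e-14). Slc5a2, the sodium-glucose cotransporter best known from the kidney, was also higher, by 1.32 ± 0.34 (adjusted p = 0.00239), but alpha at 6.47 to 9.03 and beta at 8.7 to 9.45 overlapped.

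Ion exchangers and pumps held some of the widest gaps among transporters. Of 32 exchangers and cotransporters 8 were higher and 3 lower, or 34.4% called against 34.5% of all genes. Slc12a7 (chr13:73733052-73816754), a potassium-chloride cotransporter, was 7.27, 7.75 and 8.21 in alpha (lowest, median and highest) and 11.3, 11.75 and 11.93 in beta, with no overlap and a fold change of 3.95 ± 0.35 (adjusted p = 1.26e-10). The bicarbonate cotransporter genes Slc4a10 and Slc4a7 were higher by 2.93 ± 0.46 and 2.59 ± 0.31. Slc4a10 reached 10.32 in an alpha library, just under the lowest beta value of 10.5. Slc24a5, a sodium-calcium exchanger, went the other way, at 9.06 to 11.19 in alpha and 8.07 to 9.01 in beta. Among 34 P-type ATPase genes 13 were higher and 5 lower. Both calcium pumps of the endoplasmic reticulum named by the rule were higher: Atp2a2 (chr5:122453513-122502225) was 13.11, 13.57 and 14.13 in alpha and 15.24, 16.56 and 16.9 in beta, a fold change of 2.73 ± 0.25 (adjusted p = 2.16e-10). Atp2a3 was at 11.03 to 11.82 in alpha and 12.95 to 14.07 in beta, a fold change of 2.29 ± 0.19. Neither gene's groups overlapped. The sodium pump regulator gene Fxyd3 was higher by 2.38 ± 0.65, with overlapping groups.

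Amino-acid transporters went in both directions. Of 36 genes 11 were higher and 6 lower in beta. Higher were Slc1a4, a neutral amino-acid transporter (1.66 ± 0.42), Slc36a1, a proton-coupled transporter of lysosomes and cell surface (1.38 ± 0.19), and Slc38a10 (1.22 ± 0.21). Lower were Slc38a5, a glutamine transporter known for its part in alpha-cell growth, and Slc7a2, which carries arginine and lysine. Slc38a5 was 9.28, 10.31 and 10.66 in alpha and 6.84, 7.23 and 9.87 in beta, and its fold change was -2.33 ± 0.37 (adjusted p = 8.23e-06), or -3.14 without the doubted libraries. Slc7a2 was 14.9, 16.61 and 17.47 in alpha and 14.62, 14.84 and 15.66 in beta, a fold change of -1.40 ± 0.31 (adjusted p = 0.000627). Both overlapped between groups in all 15 libraries and separated without the doubted ones.

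Among 44 mitochondrial carrier genes, 13 were higher and 7 lower. Slc25a33 (chr4:149744036-149774267), a carrier of pyrimidine nucleotides, was 8.08, 8.6 and 9.28 in alpha and 3.27, 3.92 and 6.6 in beta, with no overlap and a fold change of -4.27 ± 0.41 (adjusted p = 4.15e-10). Slc25a53 was also lower (-1.62 ± 0.23), and Slc25a1, which exports citrate from mitochondria, was higher by 1.10 ± 0.26. Of 29 metal transporter genes 7 were higher and 3 lower, and the 3 that were named were all lower: Slc40a1, the iron exporter ferroportin (-2.14 ± 0.29), Slc41a2, a magnesium transporter (-1.99 ± 0.29), and Slc39a11, a zinc importer (-1.60 ± 0.20). Slc40a1 ran from 10.89 to 11.91 in alpha and from 8.35 to 10.25 in beta, without overlap. The share called among the metal transporter genes was 34.5%, the same as over all genes.

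The remaining transporter lists also leaned to beta. Of 49 nucleoside, nucleotide-sugar and vesicular transporter genes, 19 were higher and 3 lower. Sv2a and Sv2b, paralogous glycoproteins of secretory vesicles, moved in opposite directions: Sv2a was 8.56 to 10.86 in alpha and 11.2 to 12.18 in beta (2.18 ± 0.37), and Sv2b was 11.54 to 13.07 in alpha and 8.79 to 10.83 in beta (-2.22 ± 0.24). Neither overlapped between the groups. Of 33 ABC transporter genes 10 were higher and 3 lower, or 39.4% called against 34.5% of all genes. Abcc4, which exports cyclic nucleotides and organic anions, was higher by 2.13 ± 0.41, Abca5 by 1.51 ± 0.21 and the peroxisomal importer gene Abcd3 by 1.08 ± 0.14. Of 30 monocarboxylate and organic ion transporter genes 8 were higher and 4 lower, led by Slc22a23 (2.55 ± 0.26) and Slc16a6 (1.48 ± 0.26). Slc16a6 stood at a mean of 8.36 in alpha DT, at the lower edge of the beta range of 8.36 to 9.26 and above the alpha range of 6.43 to 7.53. All 3 aquaporin genes tested, of 4 in the table, were higher, among them Aqp11 (2.64 ± 0.38) and Aqp4 (2.19 ± 0.40), water channels.

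Receptors differed more often than transporters, with 50.0% of the 234 tested (of 263 in the table) called, 73 higher and 44 lower, and a median of 0.16. After ribosomal centring 104 were higher and 25 lower, beside 46.4% and 5.23% of all genes, and without the doubted libraries 68 and 44. Of 9 class B receptors for peptide hormones 4 were higher and 2 lower. Glp1r (chr17:30901867-30936510), the receptor of the gut hormone GLP-1, was 4.3, 6.92 and 8.55 in alpha and 14.36, 15.05 and 15.96 in beta, with a fold change of 8.35 ± 0.55 (adjusted p = 1.65e-12). Gcgr, the glucagon receptor, was 1.03, 2.08 and 3.46 in alpha and 8.75, 9.78 and 10.16 in beta, a fold change of 7.50 ± 0.59. Gipr, the receptor of the second incretin hormone, was 7.57, 8.43 and 9.47 in alpha and 9.93, 10.67 and 10.82 in beta, a fold change of 1.95 ± 0.31. None of these 3 overlapped between groups, and the gap was narrower for Gipr than for Glp1r and Gcgr in log2 units, a difference that was not tested. All alpha values of Gcgr lay below the common first quartile of 5.95, where values rest on few distinct levels, so the size of its gap is uncertain. The same limit applies, among others, to P2ry6, P2ry1, Cnr1, Egfr, Kcng3, Cox6a2, Gm17767 and Gm4055 below.

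Of 27 receptors for purines, lipids and metabolites 14 were higher and 4 lower, with a median of 0.99. The nucleotide receptor genes P2ry6 (chr7:100937630-100975498) and P2ry1 were near the bottom of the range in alpha. P2ry6 was 0.76, 1.84 and 4.27 there and 9.54, 10.25 and 10.48 in beta, a fold change of 8.11 ± 0.77 (adjusted p = 4.78e-10), and P2ry1 was 1.67, 3.95 and 5.74 in alpha and 10.44, 10.61 and 10.86 in beta, a fold change of 6.99 ± 0.60. The cannabinoid receptor gene Cnr1 was higher by 5.51 ± 0.57, at 1.03 to 5.66 in alpha and 8.37 to 9.51 in beta. Fatty acid receptors split: Ffar3, for short chains, was higher by 1.82 ± 0.54 (adjusted p = 0.00873), and Ffar4, for long chains, was 9.05 to 10.17 in alpha and 6.97 to 8.38 in beta (-1.87 ± 0.24). Gpr119, a receptor of lipid amides, was lower (-1.10 ± 0.23). Gpr81, the lactate receptor, is not counted among these receptors but in the list of orphan and adhesion receptors. Gpr81 was 9.08, 10.41 and 10.76 in alpha and 4.36, 5.23 and 8.26 in beta, a fold change of -4.41 ± 0.38 (adjusted p = 9.57e-11) with no overlap.

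Of 8 aminergic and acetylcholine receptor genes 4 were higher and 3 lower. Adra2a, the adrenergic receptor through which catecholamines block insulin release, was 0.76, 5.37 and 9.34 in alpha and 10.53, 11.48 and 11.99 in beta, a fold change of 6.25 ± 0.99 (adjusted p = 1.45e-05). The value of 9.34 was alpha 8. Chrm3, the muscarinic receptor of the vagal signal, was higher by 4.76 ± 0.56. Of 23 class A peptide receptors 5 were higher and 6 lower, or 7 and 6 after ribosomal centring. Galr1, the galanin receptor, was 3.95 to 7.27 in alpha and 8.86 to 10.92 in beta (4.84 ± 0.51), and F2rl1, a protease-activated receptor, was higher by 2.82 ± 0.44. The receptors of the pituitary hormones vasopressin and oxytocin were lower in beta. Avpr1b (chr1:131599114-131612000) was 9.38, 10.75 and 11.82 in alpha and 3.26, 3.85 and 8.81 in beta, a fold change of -5.49 ± 0.77 (adjusted p = 2.57e-06). Oxtr was 11.5, 12.85 and 13.38 in alpha and 4.98, 7.62 and 11.5 in beta, a fold change of -4.47 ± 0.62, and the endothelin receptor gene Ednra was lower as well (-2.26 ± 0.44). Oxtr and Ednra overlapped in all 15 libraries and not without the doubted ones.

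Of 54 cytokine and related receptors 18 were higher and 2 lower, or 37.0% called against 34.5% of all genes. Prlr (chr15:10177238-10349190), the prolactin receptor that drives beta-cell growth in pregnancy, was 5.48, 7.24 and 8.22 in alpha and 13.97, 14.81 and 15.57 in beta, a fold change of 7.75 ± 0.42 (adjusted p = 3.97e-15). Cntfr, the ligand-binding receptor of ciliary neurotrophic factor, was 4.85 to 6.4 in alpha and 10.12 to 11.83 in beta (5.42 ± 0.31). The 2 lower genes were Il6st, the shared signalling chain of the interleukin-6 family (-1.13 ± 0.15), and the interferon receptor chain Ifnar2 (-1.18 ± 0.18). Hence the binding chain Cntfr and the signalling chain Il6st stood on opposite sides, although Il6st was at 12.12 to 12.76 in beta, well above the common median.

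Receptor tyrosine kinases were called 8 higher and 8 lower of 27, with a median of -0.13 that became 0.61 after ribosomal centring. Egfr, the epidermal growth factor receptor, was 2.52, 3.72 and 4.98 in alpha and 8.3, 8.99 and 9.98 in beta (5.35 ± 0.52, adjusted p = 6.06e-10), and the insulin receptor-related gene Insrr was 9.02 to 11.46 in alpha and 13.44 to 14.7 in beta (4.21 ± 0.30). Ntrk2 was higher by 2.04 ± 0.30. Lower were Gfra1, a co-receptor of the neurotrophic factor GDNF, at 10.05 to 10.92 in alpha and 5.48 to 8.79 in beta (-3.79 ± 0.35), its relative Gfra3 (-2.13 ± 0.55) and Fgfr1, at 10.13 to 11.53 against 8.21 to 9.6 (-2.30 ± 0.23). Transmitter receptors were more often lower, 11 of 25 against 7 higher, with a median of -0.46 that became 0.28 after ribosomal centring. Gria2, an AMPA glutamate receptor subunit, was 13.43, 14.07 and 14.3 in alpha and 9.69, 10.34 and 12.72 in beta (-3.12 ± 0.34, adjusted p = 1.92e-08). The kainate subunit gene Grik2 (-2.59 ± 0.27) and the GABA-A subunit gene Gabrg1 (-3.13 ± 0.40) were lower too. The NMDA subunit gene Grin1, at 5.06 to 7.39 in alpha and 9.32 to 10.38 in beta (3.72 ± 0.37), and the GABA-B subunit gene Gabbr2 (1.36 ± 0.28) were higher.

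Among 61 orphan and adhesion G protein-coupled receptors, 13 were higher and 8 lower, a share of 34.4% called, close to the background. Gpr158 (chr2:21367567-21830544) was 6.34, 6.95 and 8.21 in alpha and 12.29, 13.1 and 13.34 in beta, a fold change of 5.82 ± 0.31 (adjusted p = 1.41e-15). The adhesion receptor genes Gpr116 (4.31 ± 0.44) and Gpr98 (2.13 ± 0.22) were higher and Gpr179 (-2.01 ± 0.37) and Gpr85 (-1.03 ± 0.22) lower. Gpr81, given above, is counted in this list and was lower as well (-4.41 ± 0.38).

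**Figure D3:**
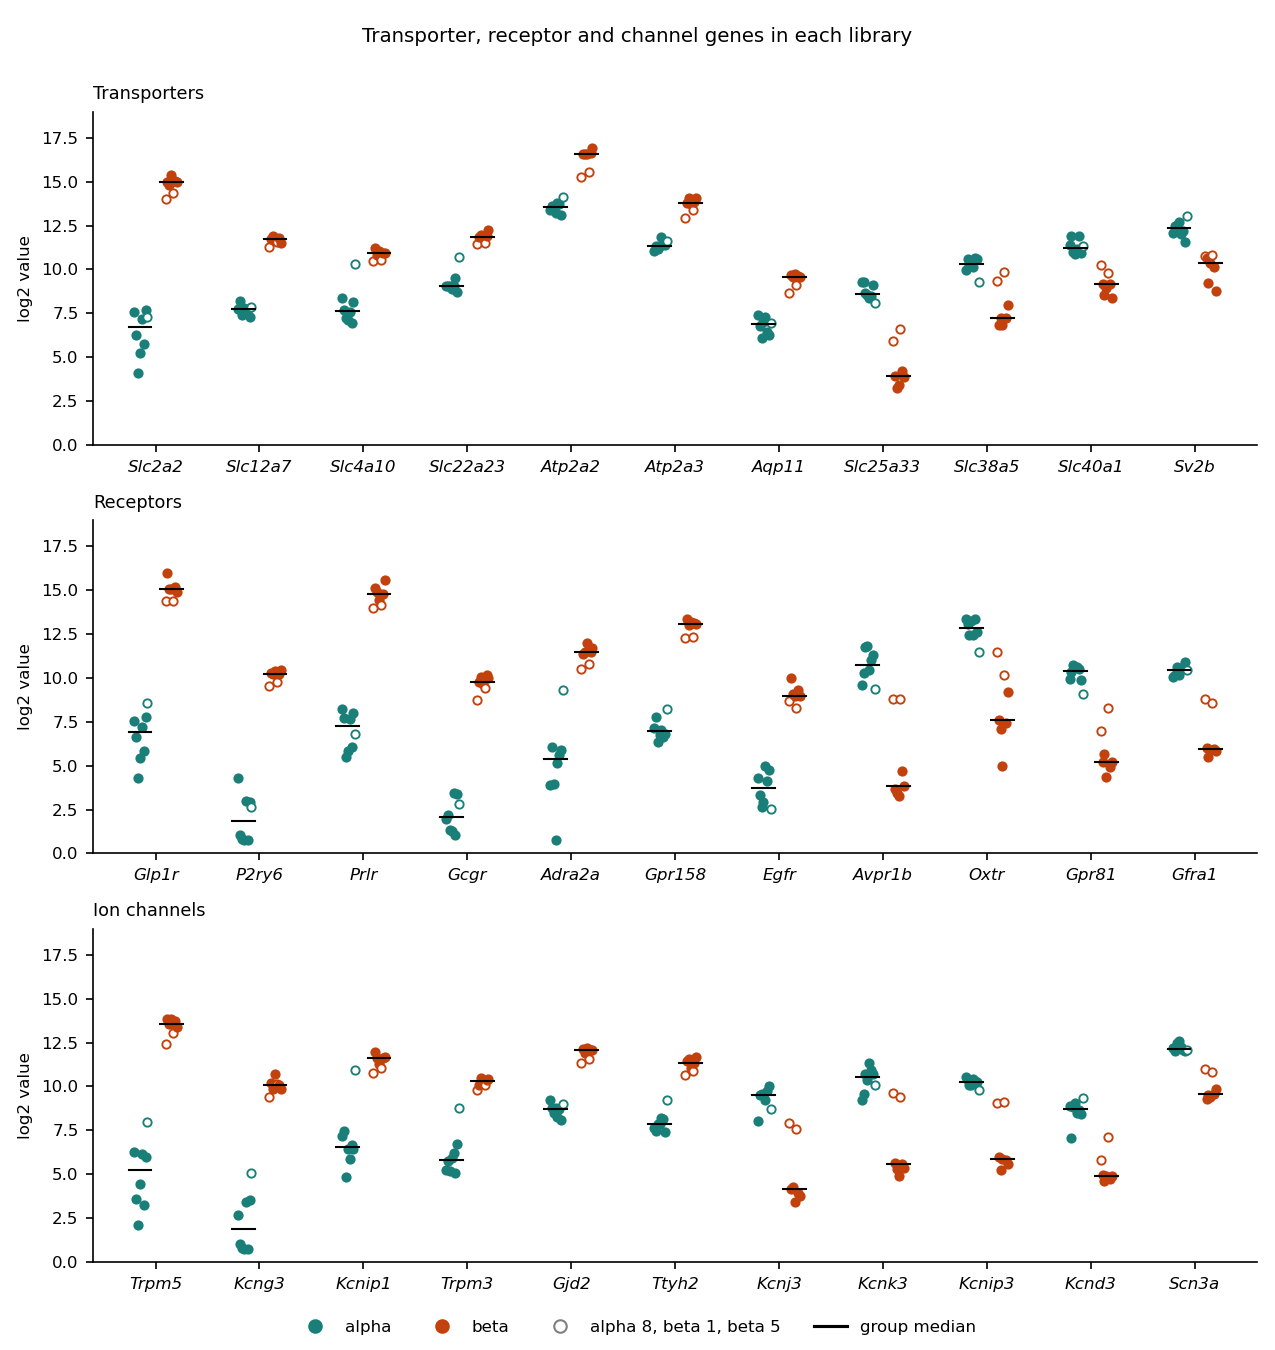
Log2 values (vertical axis) of transporter, receptor and channel genes in each alpha and beta library (points), with group medians as lines and alpha 8, beta 1 and beta 5 as open points. The beta libraries of Slc2a2, Glp1r and Trpm5 sit between 12.4 and 15.96, above all alpha libraries, and for genes lower in beta the open beta points usually lie nearest to alpha.

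Ion channels were divided evenly, 39 higher and 40 lower of 163 tested (173 in the table), with 48.5% called and a median of 0.08. After ribosomal centring 78 were higher and 20 lower, beside 46.4% and 5.23% of all genes, and without the doubted libraries 38 and 38. Of 27 TRP and mechanosensitive channel genes 7 were higher and 4 lower, or 40.7% called against 34.5% of all genes. Trpm5 (chr7:143071529-143094642), a calcium-activated cation channel, was 2.09, 5.22 and 7.98 in alpha and 12.4, 13.56 and 13.85 in beta, a fold change of 8.43 ± 0.62 (adjusted p = 1e-11), and Trpm3, a heat- and steroid-sensitive channel, was 5.05 to 8.79 in alpha and 9.79 to 10.5 in beta (4.11 ± 0.50). Gjd2, the connexin that couples beta-cells electrically, was 8.11, 8.74 and 9.25 in alpha and 11.35, 12.06 and 12.2 in beta (3.23 ± 0.26, adjusted p = 1.51e-11). None of these 3 overlapped between groups.

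Potassium channel genes changed in both directions. Of 31 voltage-gated potassium channel genes, 9 were higher and 7 lower. Kcng3 (chr17:83574023-83631995), a silent subunit that forms channels only with partners, was 0.76, 1.86 and 5.07 in alpha and 9.39, 10.09 and 10.71 in beta, a fold change of 7.77 ± 0.89 (adjusted p = 2.89e-08). The channel-interacting proteins Kcnip1 and Kcnip3, which bind the same Kv4 channels, moved apart. Kcnip1 was 4.85, 6.54 and 10.94 in alpha and 10.78, 11.62 and 11.97 in beta (4.46 ± 0.67), where 10.94 was alpha 8, and Kcnip3 was 9.77, 10.27 and 10.51 in alpha and 5.24, 5.87 and 9.13 in beta (-3.56 ± 0.46). Kcnd3, a Kv4 channel itself, was lower (-3.30 ± 0.36). Of 24 inward-rectifier, tandem-pore and calcium-activated potassium channel genes 3 were higher and 7 lower, with a median of -0.19 that became 0.55 after ribosomal centring. Kcnj3 (chr2:55411798-55598145), a channel opened by G proteins, was 8.04, 9.52 and 10.02 in alpha and 3.42, 4.16 and 7.92 in beta (-4.30 ± 0.51, adjusted p = 5.8e-08). The acid-sensitive leak channel gene Kcnk3 was lower (-3.82 ± 0.56), and so was Kcnn2, a small-conductance channel (-1.71 ± 0.36). The auxiliary subunits Kcnmb1 (3.61 ± 0.54) and Kcnmb2 (1.55 ± 0.17) of the large-conductance calcium-activated channel were higher.

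Sodium and cyclic-nucleotide channel genes were lower in 8 of 19 cases and higher in 5, with a median of -0.59 that became 0.14 after ribosomal centring. Scn3a, a voltage-gated sodium channel of neurons and islet cells, was 12.01, 12.14 and 12.57 in alpha and 9.28, 9.57 and 10.98 in beta, a fold change of -2.29 ± 0.20 (adjusted p = 8.9e-11), and its auxiliary subunit Scn3b was lower as well (-1.92 ± 0.31). The epithelial sodium channel subunit Scnn1b was higher by 1.90 ± 0.28. Of 36 calcium channel genes, which here include release channels, 7 were higher and 9 lower, or 19 and 5 after ribosomal centring. The inositol trisphosphate receptors split: Itpr1 was 14.37 to 15.34 in alpha and 12.5 to 14.06 in beta (-1.93 ± 0.18), while Itpr2 (1.74 ± 0.37) and Itpr3 (1.33 ± 0.17) were higher, as was Stim1, the calcium sensor of the endoplasmic reticulum (1.68 ± 0.25). Of 23 chloride channel genes 7 were higher and 4 lower, led by Ttyh2 (3.26 ± 0.34), Clic5 (2.93 ± 0.38) and Ttyh1 (1.38 ± 0.34).

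Some genes central to the beta-cell glucose response did not pass, and were picked here after their values were seen. Abcc8 and Kcnj11, the subunits of the ATP-sensitive potassium channel, had fold changes of -0.36 (95% interval -0.72 to 0.00, adjusted p = 0.113) and -0.22 (95% interval -0.52 to 0.08, adjusted p = 0.266). For Cacna1d, a voltage-gated calcium channel, it was 0.15 (95% interval -0.16 to 0.46, adjusted p = 0.485), and for Slc30a8, the zinc transporter of secretory granules, 0.35 (95% interval -0.04 to 0.73, adjusted p = 0.162). On the deposited scale these intervals do not reach a log2 difference of 1 in either direction. Ribosomal centring moved the median over all genes by 0.74, and the intervals were not computed after it. Ldha and Slc16a1, lactate genes known to be kept low in beta-cells, varied widely within both groups. Ldha was 1.93, 4.07 and 7.46 in alpha and 3.07, 4.37 and 11.27 in beta (95% interval of the difference -0.90 to 2.93). Slc16a1 was 3.18, 4.44 and 5.67 in alpha and 1.03, 2.91 and 6.8 in beta (95% interval -2.58 to 0.14).

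Metabolic genes leaned to beta, 150 higher and 55 lower of 500 tested (516 in the table), with 41.0% called and a median of 0.25. After ribosomal centring 327 were higher and 17 lower, beside 46.4% and 5.23% of all genes, and without the doubted libraries 144 and 56. Of 24 glycolysis genes 10 were higher and 1 lower. Pfkfb2, which makes the activator of phosphofructokinase, was 11.02 to 12.3 in alpha and 13.11 to 14.27 in beta (2.19 ± 0.19), Pkm, a pyruvate kinase, was higher by 1.34 ± 0.19 and the enolase gene Eno2 by 1.02 ± 0.24. The lower gene was Hk1, the high-affinity hexokinase, at 8.54, 9.13 and 10.22 in alpha and 6.11, 6.39 and 8.04 in beta, a fold change of -2.58 ± 0.31 (adjusted p = 5.8e-08) with no overlap.

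Of 24 gluconeogenesis and glycogen genes 7 were higher and 4 lower. G6pc2 (chr2:69211073-69227993), the islet glucose-6-phosphatase, was 8.92, 9.28 and 13.7 in alpha and 14.94, 16.14 and 16.47 in beta, a fold change of 6.01 ± 0.67 (adjusted p = 8.21e-08), where 13.7 was alpha 8. Pcx, pyruvate carboxylase, was higher by 2.77 ± 0.28. Lower were Fbp1, fructose bisphosphatase, at 9.37 to 10.84 in alpha and 5.48 to 8.39 in beta (-3.60 ± 0.37), the glycogen targeting subunit gene Ppp1r3b at 9.22 to 10.71 against 3.97 to 7.76 (-4.18 ± 0.39), and the glycogen phosphorylase gene Pygl (-1.61 ± 0.33). Another targeting subunit gene, Ppp1r3c, was higher by 1.22 ± 0.33. Of 40 genes of the citrate cycle and pyruvate entry 14 were higher and 4 lower. Pdk4 (chr6:5483351-5496278), the kinase that shuts pyruvate dehydrogenase, was 10.77, 12.16 and 12.6 in alpha and 5.69, 6.05 and 10.64 in beta, a fold change of -4.82 ± 0.61 (adjusted p = 5.31e-07). Pdp2, the opposing phosphatase, was higher by 1.41 ± 0.39, and Pdha1, a subunit of the enzyme itself, was lower (-1.40 ± 0.31). Acly, which makes acetyl-CoA from exported citrate, was 13.65 to 14.66 in alpha and 15.18 to 16.66 in beta (1.66 ± 0.20), and Idh1, cytosolic isocitrate dehydrogenase, was higher by 1.22 ± 0.29.

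Among the metabolic lists the cholesterol genes had the largest share higher in beta. Of 34 cholesterol genes 20 were higher and 1 lower (58.8% and 2.94%), with a median of 0.78, and 19 and 1 without the doubted libraries. Vldlr, a lipoprotein receptor, was 7.47, 7.82 and 10.01 in alpha and 11.24, 11.97 and 12.16 in beta, a fold change of 3.82 ± 0.41 (adjusted p = 1.49e-08). Fdps, an enzyme of the sterol pathway, was 8.33 to 8.94 in alpha and 10.16 to 10.9 in beta (1.95 ± 0.28). The 1 lower gene was Npc2, which moves cholesterol out of lysosomes (-1.06 ± 0.17). Promoters of the list are shown as a description, and the part of any factor in these differences was not tested. As background, the factor NF-Y binds CCAAT boxes and is known to act with the sterol factor SREBP at such promoters. RefSeq (GRCm38.p6) promoter windows were at hand for 24 of the 34 genes, 35 windows in all. In the 250 bases before the start, CCAAT on either strand occurred in 22 of 35 windows (62.9%) against 33.8% of all 32851 promoter windows, and in 12 of 20 windows of the genes higher in beta (60.0%). The match was thus no more frequent in the higher genes than in the whole list. Genes with several windows count more than once. The sterol element TCACNCCAC, searched on both strands, occurred in 1 of the 35 windows (2.86%) and 1.05% of all windows. Among the windows of the genes higher in beta it occurred in 0 of 20 (0.0%). The sequences below run 5′ to 3′ up to the start, with CCAAT or its reverse complement in capitals. They belong to the 4 higher genes with the largest fold changes among those with 1 window, after genes of 1 chromosome were left out. Each of the 4 holds 1 match, against a match in 12 of 20 windows of the genes higher in beta, so they are examples only. Insig1 (chr5:28071162-28071411, plus strand; 1.62) encodes a brake on sterol synthesis, Soat1 (chr1:156474329-156474578, minus strand; 1.56) a cholesterol-esterifying enzyme, Nceh1 (chr3:27182754-27183003, plus strand; 1.05) a cholesterol ester hydrolase and Lss (chr10:76531355-76531604, plus strand; 1.05) lanosterol synthase.
Insig1: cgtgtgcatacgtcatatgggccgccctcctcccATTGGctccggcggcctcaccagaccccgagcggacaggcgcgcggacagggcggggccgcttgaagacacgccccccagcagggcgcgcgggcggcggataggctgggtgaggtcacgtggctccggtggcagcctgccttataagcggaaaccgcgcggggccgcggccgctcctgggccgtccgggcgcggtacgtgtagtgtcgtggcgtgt
Soat1: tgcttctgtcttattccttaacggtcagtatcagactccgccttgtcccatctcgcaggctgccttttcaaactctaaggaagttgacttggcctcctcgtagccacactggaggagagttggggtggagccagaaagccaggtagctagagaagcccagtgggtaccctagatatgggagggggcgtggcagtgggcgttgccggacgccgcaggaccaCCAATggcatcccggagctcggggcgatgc
Nceh1: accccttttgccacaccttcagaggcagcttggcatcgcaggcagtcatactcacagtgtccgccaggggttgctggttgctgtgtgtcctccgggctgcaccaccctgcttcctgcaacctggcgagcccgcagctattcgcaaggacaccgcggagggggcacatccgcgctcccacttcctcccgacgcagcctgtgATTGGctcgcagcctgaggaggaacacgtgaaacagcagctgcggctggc
Lss: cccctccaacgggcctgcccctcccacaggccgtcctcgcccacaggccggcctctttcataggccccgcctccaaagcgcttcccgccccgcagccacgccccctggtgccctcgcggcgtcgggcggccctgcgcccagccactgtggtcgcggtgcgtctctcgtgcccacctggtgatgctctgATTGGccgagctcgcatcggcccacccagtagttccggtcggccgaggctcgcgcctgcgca
A match to these letters is a description of the sequence and not a bound site.

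Of 42 fatty acid synthesis and storage genes 18 were higher and 6 lower. The elongase Elovl5 was 9.47 to 10.86 in alpha and 12.13 to 12.9 in beta (2.54 ± 0.27), and the desaturases Scd1 (2.51 ± 0.40) and Scd2 (1.46 ± 0.30) were higher. Lower were Agpat4, an acyltransferase (-2.80 ± 0.29), Lpl, lipoprotein lipase (-1.68 ± 0.44), and Lpin2, a phosphatidate phosphatase (-1.13 ± 0.24). For fatty acid oxidation, 7 of 27 were higher and 2 lower, or 33.3% called against 34.5% of all genes. Hadh (chr3:131233419-131272101), an oxidation enzyme whose loss causes excess insulin release, was 6.7, 7.51 and 8.32 in alpha and 12.83, 13.81 and 14.26 in beta, a fold change of 6.08 ± 0.33 (adjusted p = 2.67e-15). The carnitine transferase gene Cpt1c was lower (-1.23 ± 0.21).

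The respiratory chain list was the exception among metabolic lists, with 5 of 84 genes higher and 13 lower and a median of -0.10, but this direction flipped after ribosomal centring, to 44 genes higher and a median of 0.64. Its share of 21.4% called was below the 34.5% of all genes. Cox6a2, a cytochrome oxidase subunit best known from muscle, was 2.93, 4.26 and 5.92 in alpha and 8.19, 9.71 and 11.3 in beta, a fold change of 5.45 ± 0.52 (adjusted p = 4.17e-10). Uqcrfs1 (-1.02 ± 0.22) and Ndufa6 (-1.30 ± 0.33), subunits of complexes III and I, were lower with overlapping groups. Atp5l2 (-1.25 ± 0.35) closely resembles its paralog Atp5l, and how reads were shared between copies is not given in the sources used here.

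Amino-acid and one-carbon enzymes included transmitter-making genes. Of 66 amino-acid genes 20 were higher and 8 lower. Th, tyrosine hydroxylase, the first enzyme of catecholamine synthesis, was 2.74, 4.06 and 6.0 in alpha and 10.3, 11.16 and 11.77 in beta, a fold change of 6.82 ± 0.54 (adjusted p = 1.29e-11). Gad1, which makes GABA from glutamate, was 3.68, 5.29 and 6.69 in alpha and 10.54, 11.27 and 11.57 in beta (5.88 ± 0.42), and Maob, a monoamine oxidase, was higher by 2.00 ± 0.22. Lower were enzymes of arginine and ornithine use, Arg1 (-2.51 ± 0.47) and Oat (-3.04 ± 0.33). Of 36 one-carbon and nucleotide genes 12 were higher and 2 lower, or 38.9% called against 34.5% of all genes. Hprt, the purine salvage enzyme, was 7.32, 8.03 and 9.89 in alpha and 11.74, 11.89 and 12.05 in beta (3.65 ± 0.40, adjusted p = 1.78e-08), and in alpha DT, which carries the same Glucagon-Venus reporter as alpha, its mean was 8.01. The mitochondrial folate enzymes Aldh1l2 (3.01 ± 0.37) and Mthfd2 (2.27 ± 0.24) were higher.

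Redox genes were 17 higher and 7 lower of 51. Gpx2 and Gpx3, glutathione peroxidases, stood apart: Gpx2 was 3.23 to 6.82 in alpha and 7.83 to 10.01 in beta (4.05 ± 0.61), and Gpx3, a secreted form, was 14.08, 15.72 and 16.19 in alpha and 10.59, 11.13 and 14.34 in beta (-3.65 ± 0.45, adjusted p = 2.37e-07). The glutathione transferase gene Gstm1 (3.51 ± 0.39) and glutaredoxin (Glrx, 1.89 ± 0.22) were higher, and Prdx4, a peroxiredoxin of the endoplasmic reticulum (-2.22 ± 0.32), and Txnip, an inhibitor of thioredoxin (-1.06 ± 0.23), were lower. In the retinoid, steroid and aldehyde list 21 of 76 were higher and 7 lower, or 36.8% called against 34.5% of all genes. Adh1, alcohol dehydrogenase, was 7.81, 8.36 and 8.78 in alpha and 12.17, 12.71 and 13.13 in beta (4.29 ± 0.29, adjusted p = 3.27e-13), and Dhrs4, a retinal reductase, was higher by 2.65 ± 0.32. Rbp4, the plasma retinol carrier, was 13.39 to 15.11 in alpha and 9.94 to 12.96 in beta (-2.54 ± 0.34), and Ugt8a, which makes galactosylceramide, was lower (-3.63 ± 0.38). Rbp4 is also on the list of delta-cell markers.

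Adhesion and matrix genes were called as often as channels (48.5% of 367 tested, 387 in the table), 91 higher and 87 lower, with a median of 0.12. After ribosomal centring 165 were higher and 42 lower, beside 46.4% and 5.23% of all genes, and without the doubted libraries 92 and 95. Junction lists leaned to beta and guidance lists to alpha. Of 29 cadherin genes 10 were higher and 5 lower, and of 34 tight junction and nectin genes 13 were higher and 8 lower. Desmoplakin (Dsp), which ties desmosomes to keratin, was 9.78 to 11.51 in alpha and 12.4 to 12.78 in beta (2.11 ± 0.21), and the desmosomal cadherin gene Dsc2 was higher by 1.85 ± 0.33. Cdhr1 was higher by 2.80 ± 0.30, the junction genes Jam2 by 2.31 ± 0.44, Pvrl1 by 2.20 ± 0.30 and Cldn7 by 2.10 ± 0.45. Cdh9, at 9.58 to 10.81 in alpha and 5.54 to 8.59 in beta (-3.72 ± 0.35), Cadm1, a homophilic adhesion molecule, at 11.02 to 11.52 against 7.83 to 9.6 (-2.62 ± 0.21), and Cldn6 (-1.40 ± 0.26) were lower.

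Protocadherins were higher in 17 of 67 cases and lower in 4, or 31.3% called, below the 34.5% of all genes. Pcdh9 (chr14:93013700-93892834) was 9.11, 9.81 and 10.74 in alpha and 3.92, 4.49 and 7.34 in beta, a fold change of -4.77 ± 0.37 (adjusted p = 1.04e-11). The clustered genes Pcdha4 (2.22 ± 0.28) and Pcdha2 (2.14 ± 0.26) were higher at nearly equal values, and since genes of this cluster share their last exons, their counts may not be separate. Among 27 integrin genes and partners 7 were higher and 3 lower, with Itgb8 (2.47 ± 0.41) and the laminin-binding Itga6 (2.26 ± 0.35) higher. The share called in this list was 37.0%, against 34.5% of all genes.

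Immunoglobulin adhesion molecules moved both ways, 9 of 40 higher and 11 lower, or 16 and 6 after ribosomal centring. Sdk2, a homophilic synaptic recognition molecule, was 5.61, 6.77 and 10.43 in alpha and 11.59, 12.14 and 12.68 in beta (5.04 ± 0.62), where 10.43 was alpha 8. Contactin 1 (Cntn1) was 5.01 to 9.43 in alpha and 11.25 to 12.38 in beta (4.84 ± 0.48), and the contactin-associated Cntnap2 was higher by 4.79 ± 0.36. Igsf21, at 9.7 to 10.73 against 5.43 to 7.54 (-4.14 ± 0.32), Chl1, a relative of the axonal molecule L1 (-3.62 ± 0.28), and Cntnap5b (-2.53 ± 0.40) were lower. Synaptic adhesion molecules were lower in 16 of 45 cases and higher in 11, with a median of -0.15 that became 0.58 after ribosomal centring. Lrrtm3 (chr10:63928497-64090255) was 8.67, 9.23 and 9.65 in alpha and 3.27, 4.03 and 6.08 in beta, a fold change of -4.73 ± 0.33 (adjusted p = 4.23e-13). Neuroligin 1 (Nlgn1, -2.22 ± 0.27) and the receptor phosphatase Ptprd (-3.00 ± 0.28) were lower, and the teneurin Tenm3 was 7.49 to 8.88 in alpha and 10.9 to 12.09 in beta (3.19 ± 0.28).

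Guidance genes of the semaphorin, plexin, netrin and slit families were lower in 15 of 37 cases and higher in 8, with a median of -0.23 that became 0.51 after ribosomal centring. Sema3e, a secreted semaphorin, was 9.17 to 10.2 in alpha and 6.21 to 8.88 in beta (-2.56 ± 0.31), Sema4f was lower (-3.98 ± 0.60) and Ntn4, a netrin of basement membranes, was lower too (-2.34 ± 0.26). Robo1, the slit receptor, was 9.03 to 9.63 in alpha and 11.11 to 12.04 in beta (2.30 ± 0.21). Of 10 Eph receptors and ephrins, short-range contact signals known in islets, 5 were lower, also without the doubted libraries, and 2 after ribosomal centring. Efnb2 was 8.41, 8.93 and 9.64 in alpha and 4.86, 5.56 and 9.42 in beta (-2.84 ± 0.44, adjusted p = 4.27e-06), Efnb3 was lower (-1.80 ± 0.35) and Ephb2 was 8.2 to 9.06 against 6.7 to 7.78 (-1.36 ± 0.22). Only Ephb2 of these 3 separated the groups in all 15 libraries.

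Matrix genes had the lowest median of the adhesion lists, -0.87 (-0.13 after ribosomal centring), with 7 of 45 higher and 14 lower. The counts turned after ribosomal centring, to 13 higher and 7 lower. Without the doubted libraries 7 were higher and 18 lower. Col6a6 (chr9:105689417-105828246) was 5.21, 6.32 and 9.17 in alpha and 11.54, 12.12 and 12.5 in beta, a fold change of 5.63 ± 0.50 (adjusted p = 2.71e-10), and nephronectin (Npnt), an integrin ligand of basement membranes, was 5.57 to 7.71 against 10.06 to 10.89 (4.25 ± 0.46). The basement membrane collagen gene Col4a1 was higher by 1.35 ± 0.24. Col1a2 (chr6:4505618-4541543), a fibrillar collagen chain, was 8.93, 10.2 and 10.91 in alpha and 4.96, 5.45 and 7.96 in beta, a fold change of -4.23 ± 0.36 (adjusted p = 8.9e-11). Nidogen (Nid1), which links basement membranes, was 10.3 to 11.2 against 6.17 to 9.76 (-3.55 ± 0.38), and Lama2, a laminin chain, was lower (-1.93 ± 0.50). The mesenchymal list, which holds Col1a2, was also lower in beta, at means of 4.66 to 8.4 in alpha and 3.61 to 5.49 in beta. Of its 6 genes 3 were lower by limma: Col1a2, Col3a1 (-2.53) and Dcn (-2.02). Of its other genes, Col1a1 ran from 3.77 to 6.94 in alpha and 3.27 to 4.3 in beta (-1.32, adjusted p = 0.113), and Lum from 1.4 to 7.67 and from 2.43 to 4.1 (-1.85, adjusted p = 0.0734, or 0.0198 without the doubted libraries). Rgs5 had a fold change of 0.28 (adjusted p = 0.832). The part of mesenchymal cells in the matrix values was not tested. Among 33 proteoglycan and tetraspanin genes 9 were higher and 6 lower. Cd44, a hyaluronan receptor, was 4.09, 6.81 and 8.21 in alpha and 10.08, 10.64 and 12.16 in beta (4.42 ± 0.65), and in alpha DT its mean was 10.05. Leukocytes also express this gene, and the leukocyte list ran from 7.64 to 11.09 in alpha DT, with all 10 genes at a higher mean there than in alpha, and was highest among beta libraries in beta 1 (10.85), as was Cd44 (12.16). The part of leukocytes in the Cd44 values was not tested. The syndecans Sdc3 (3.01 ± 0.51) and Sdc2 (-2.03 ± 0.17) stood on opposite sides, the tetraspanin Cd63 was higher by 2.44 ± 0.35 and Tspan12 was 10.32 to 12.74 in alpha and 5.48 to 9.79 in beta (-4.14 ± 0.56).

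**Figure D4:**
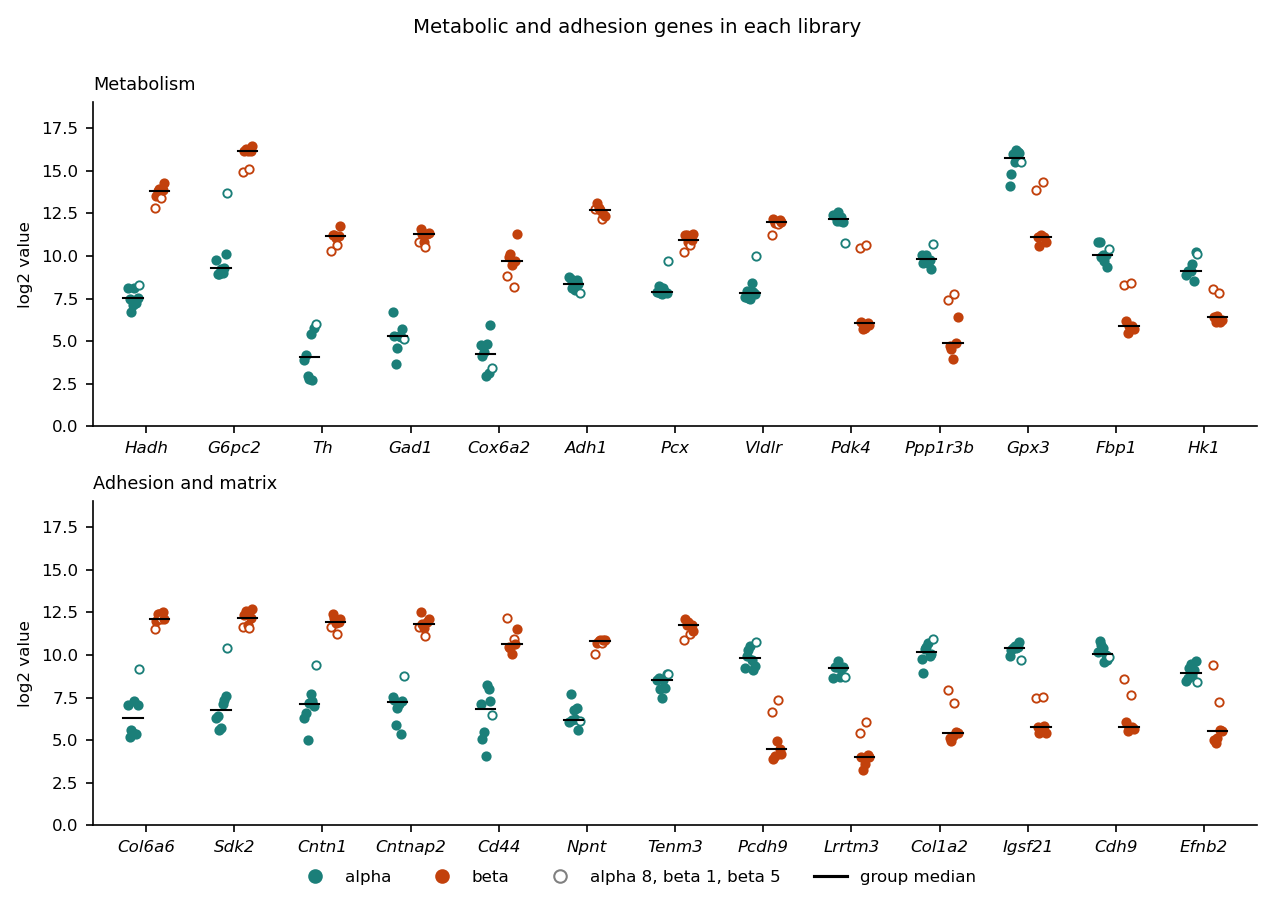
Log2 values (vertical axis) of metabolic and adhesion genes in each alpha and beta library (points), with group medians as lines and alpha 8, beta 1 and beta 5 as open points. Hadh, Th and Gad1 sit at 10.3 or more in every beta library and at 8.32 or less in every alpha library, while Pdk4, Pcdh9 and Lrrtm3 show the reverse order.

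Members of 15 symbol families, 47 genes in all, passed in opposite directions with a log2 fold change of 1 or more in size. Some share only a symbol stem, such as the epithelial and the voltage-gated sodium channels. The pairs with the widest distance were Gpr158 (5.82) and Gpr81 (-4.41), Col6a6 (5.63) and Col1a2 (-4.23), Kcnip1 (4.46) and Kcnip3 (-3.56), and Pcdha4 (2.22) and Pcdh9 (-4.77). Solute carriers gave 4 such families, among them Slc25a1 (1.10) with Slc25a33 (-4.27), Slc38a10 (1.22) with Slc38a5 (-2.33), and Slc7a5 (1.03 ± 0.22), the large neutral amino-acid transporter, with Slc7a2 (-1.40). In the sodium-calcium exchangers Slc24a2 (1.37 ± 0.20) stood against Slc24a5 (-1.60). No direction of these genes flipped after ribosomal centring, since each lower gene was lower by more than the shift of 0.74.

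**Figure D5:**
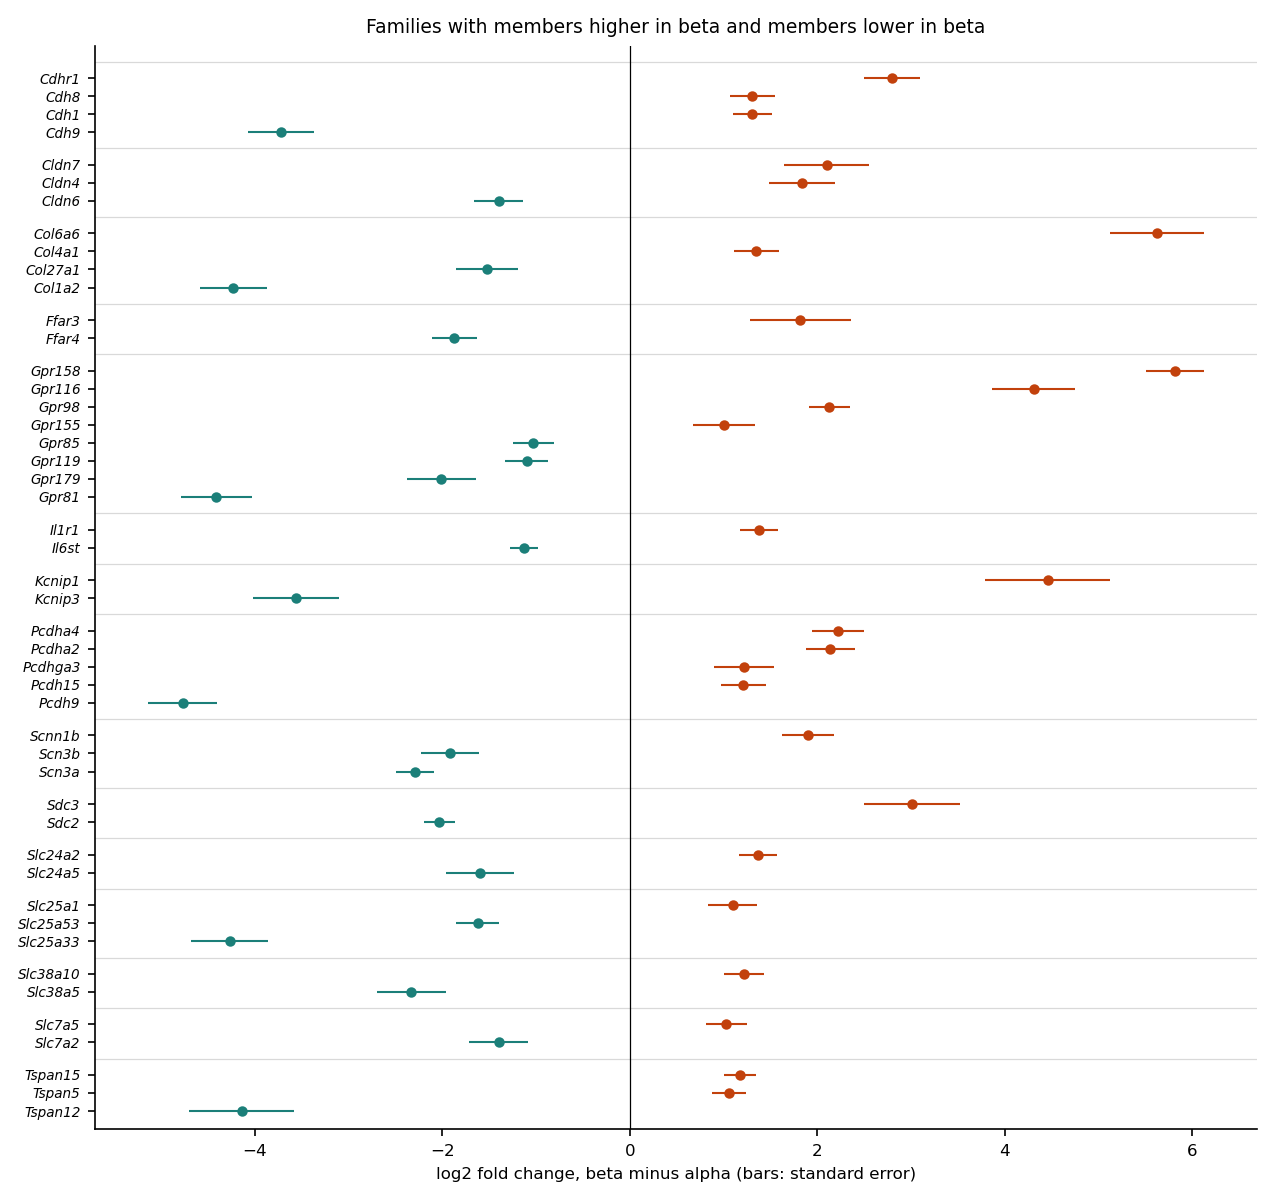
Log2 fold change of beta minus alpha (horizontal axis, bars are standard errors) for the 47 genes of 15 symbol families with members past the threshold in both directions, higher in orange and lower in green. Cadherins run from Cdhr1 at 2.80 to Cdh9 at -3.72 and collagens from Col6a6 at 5.63 to Col1a2 at -4.23.

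Outside the lists, the largest fold changes included further genes of secretion and signalling. Sytl4 (chrX:133936385-133981821), granuphilin, which docks insulin granules, was 3.19, 5.59 and 6.46 in alpha and 12.4, 13.77 and 13.97 in beta, a fold change of 8.07 ± 0.50 (adjusted p = 7.14e-14). The prohormone convertase gene Pcsk1 was 3.92 to 7.37 in alpha and 13.02 to 14.35 in beta (7.44 ± 0.46), and the protease gene Bace2 was higher by 6.98 ± 0.42. Itpkb, which phosphorylates inositol trisphosphate, was higher by 6.99 ± 0.51, and Car10, Tmem215 and Fam151a by 7.46 ± 0.57, 7.35 ± 0.64 and 6.91 ± 0.61. Lower were Higd1a (chr9:121848557-121857796), a small mitochondrial protein, at 12.04, 12.32 and 12.88 in alpha and 5.28, 5.8 and 9.9 in beta (-5.47 ± 0.54), the glycosyltransferase gene Galnt13 (-5.19 ± 0.46) and the secreted Wnt-binding gene Sfrp5 (-4.65 ± 0.47). Upk3a, a uroplakin of urothelium, was 5.8, 11.35 and 11.98 in alpha and 4.84, 5.28 and 6.58 in beta (-5.16 ± 0.92). In the 4 alpha DT libraries it was 5.06 to 7.02, close to beta, while Higd1a, Galnt13 and Sfrp5 had alpha DT means of 11.82, 12.04 and 12.24.

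The libraries that go against their labels often lay at the edge of their group nearest to the other cell type. Of the 90 named genes lower in beta, beta 1 and beta 5 were the 2 highest beta libraries for 80 (88.9%), against 971 of 2930 (33.1%) of all genes lower in beta. Of the 124 named genes higher in beta, alpha 8 was the highest alpha library for 62 (50.0%), against 635 of 2804 (22.6%). Named genes were picked for large fold changes, and these libraries for their Gcg or Pdx1. Higher shares than over all genes can follow from that choice alone. Alpha 8 stayed within the range of the other alpha libraries for Mafa (1.08) and Slc2a2 (7.28), and lay above them for Ins1 (18.27). Some fold changes of named genes were larger in size without the doubted libraries, for example -6.34 against -4.82 for Pdk4 and -7.12 against -5.49 for Avpr1b. Every one of the 214 named genes kept its direction and its call without them, which the rule for naming required.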

How the data were processed

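Bulk RNA-seq of sorted mouse islet cells was measured in 30 libraries, and 15 of them, 8 alpha and 7 beta, form the comparison. GSNAP was the aligner and GRCm38 the build, per the submitters' processing notes. Depth per sample is unknown, so the number of libraries limits precision, and the aligner version, annotation, strandedness and counting rule are not given in the sources used here. Values were deposited by the authors as quantile-normalized log2 expression of 17775 genes, a scale on which fold changes of the most abundant genes reflect rank. Of the gene names, 137 are numbers, 23 of them spreadsheet date numbers, and these are not reported by name.

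The members, gene lists and tests were chosen with earlier results of these data known. Groups follow the labels, with replicates numbered in accession order. A gene was tested if 4 or more libraries had it at 5 or higher (16633 genes). Limma 3.58.1 in R 4.3.3 fitted 1 mean per group to all 30 libraries, with an intensity trend and robust variances, and contrasted beta with alpha. Adjustment was by Benjamini-Hochberg over all genes tested. The procedure was tested on simulated data. The 46 gene lists came from general knowledge, and 48 symbols on them were not matched, besides 30 on the lists of identity and other cells.

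In each list, the genes named are the 3 largest and 3 smallest fold changes among those past the threshold that had a log2 fold change of 1 or more in size, a mean in the higher group above the median of all values and the same call without the doubted libraries. Outside the lists, the 10 largest and 10 smallest by the same criteria could be named, and genes of 1 symbol family that qualified in opposite directions are set side by side. Some genes that the rule selects are not reported here. Genes named beyond this are marker genes of the lists for other cells, the promoter examples and those said to be picked after their values were seen. List means were compared by exact permutation tests in Python 3.11.15 with scipy 1.17.1. Promoter sequences and gene positions come from RefSeq, GRCm38.p6.

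Alternatives covered the libraries in the fit, filters, an offset of 32 on the linear scale, variance models, a rank test, a test against a log2 fold change of 1, library weights, covariates, centring on ribosomal protein genes and leaving out each library. The fit of alpha and beta libraries alone without the doubted ones, and the fit without alpha 4 and alpha Pdx1 DT 5, were chosen after seeing the data.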

Additional observations from a re-analysis of the deposited data

Results flagged for a closer look

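Among the 214 named genes, 40 times a single library lay apart from the rest of its group, meaning that its gap to the nearest library took more than the Dixon limit of the group's whole range. With 8 alpha and 7 beta libraries this gives 428 groups of values, and chance flags about 1 in 20 such groups, which moreover share libraries. The library labelled alpha 8 accounted for 23 of the 40 and the library labelled beta 1 for 10.

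Alpha 8 was the highest alpha library, towards beta, for 15 genes higher in beta. The share of the range taken by its gap was 0.75 for G6pc2, 0.76 for Pcx, 0.69 for Cdhr1, 0.65 for Tnfrsf21, a death receptor, 0.64 for Vldlr and B830017H08Rik, 0.62 for Scnn1b and 0.59 for Sdk2. It was 0.58 for Slc22a23 and Slc4a10, 0.57 for Kcnip1 and Kcnmb1, 0.56 for Ttyh2, 0.55 for Trpm3 and 0.53 for Slc4a7. Galnt13, which is lower in beta, was also highest in alpha 8 (0.54). The same library was the lowest alpha library for 7 genes lower in beta, with shares of 1.00 for Gcg, 0.79 for the glypican gene Gpc6, 0.71 for Gfra3 and Upk3a, 0.66 for Lpl and Pdk4 and 0.54 for Fgfr1. It was lowest for the mean of the cytosolic ribosomal protein genes too (0.54).

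Beta 1 was the lowest beta library for 10 genes higher in beta, with shares of 0.77 for Slc35d3, 0.75 for Npnt, 0.71 for Gm17767, 0.68 for Vldlr, 0.64 for Ppp1r3c, 0.63 for Galr1, 0.62 for Pdp2, 0.58 for Gipr and Slc35f5 and 0.57 for Slc36a1. It was highest for the mean of the 3 endothelial genes (0.72). Other libraries that lay apart were alpha 3, lowest for the imprinted gene Peg10 (0.75) and for Pcsk1 (0.61), alpha 1, lowest for Slc16a6 (0.68), and alpha 2, lowest for Kcnd3 (0.61). Alpha 7 was lowest for Itpr1 (0.64) and highest for Sema4f (0.58), and beta 7 was highest for Ttyh1 (0.58).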

How the results depend on the processing

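The counts of genes higher and lower in beta, over all genes and in the 5 classes, stayed within 1.5 times their reported values under every alternative run except 3. Tested against an absolute log2 fold change of 1, 1076 genes passed, 550 higher and 526 lower. That test kept 22 and 8 transporters (higher and lower), 34 and 18 receptors, 19 and 14 channels, 37 and 14 metabolic genes and 32 and 34 adhesion genes, as its construction asks for larger changes. With library weights 9375 genes passed, 4798 higher and 4577 lower, and lower genes rose to 60 transporters and 92 metabolic genes, and the cause was not tested. Centred on ribosomal protein genes, 7717 genes were higher (46.4%) and 870 lower (5.23%). By class, 181 transporters, 78 channels, 327 metabolic and 165 adhesion genes were then higher, and 12 transporters, 25 receptors, 20 channels, 17 metabolic and 42 adhesion genes lower, since the ribosomal genes are themselves lower in beta. Leaving out 1 library at a time gave 2472 to 2919 genes higher and 2631 to 3014 lower. No named gene changed direction. Of 214 named genes, 59 lost their call against a fold change of 1, 19 after ribosomal centring and 1 in the fit of alpha and beta alone without the doubted libraries, an alternative chosen after seeing the data. No paired analysis was possible because the labels give the groups no shared replicate numbers. Depth is unknown, and values below the common first quartile of 5.95 rest on few distinct levels in each library.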

Other observations

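Several of the largest differences outside the lists fell on genes with little known function. Gm17767 was 0.76, 1.9 and 3.43 in alpha (lowest, median and highest) and 8.66, 10.3 and 10.89 in beta, a fold change of 8.22 ± 0.60 (limma, adjusted p = 1.79e-12). Gm4055 was 0.76 to 3.17 in alpha and 7.52 to 9.07 in beta (7.08 ± 1.03). B830017H08Rik was 1.12 to 9.4 in alpha, with alpha 8 at the top, and 10.12 to 11.18 in beta (7.54 ± 0.98). None of these 3 overlapped between the groups. On the alpha side, Vwde, a von Willebrand factor domain gene, was 12.44 to 13.68 in alpha and 6.58 to 10.75 in beta (-5.39 ± 0.50), Mamld1 reached 13.42 in alpha and 11.06 in beta at most (-4.73 ± 0.54), Gm20554 was 9.83 to 10.79 against 4.12 to 8.34 (-4.67 ± 0.48) and Basp1, a membrane protein of growing nerve endings, was 8.82 to 10.12 against 2.33 to 8.11 (-4.69 ± 0.53). Peg10, an imprinted gene, was 10.91 to 12.31 in alpha and 3.76 to 11.14 in beta (-4.76 ± 0.73), so its groups overlapped.

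For some named genes the alpha DT libraries lay away from alpha. Besides Upk3a and Cd44, whose alpha DT values lay on the beta side, Cntnap5b was 9.34 to 10.47 in alpha and 6.7 to 9.62 in beta with an alpha DT mean of 7.63. Kcnn2 was 7.94 to 10.15 in alpha and 6.79 to 7.64 in beta with an alpha DT mean of 6.41. Fxyd3 was 4.58 to 9.09 in alpha and 8.1 to 9.89 in beta with an alpha DT mean of 9.18. The mean of the leukocyte list was 7.64 to 11.09 in alpha DT against 4.65 to 7.63 in alpha, and its part in these values was not tested. The genes of this paragraph were picked after their values were seen, and no test of alpha DT was made here.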
